A study of Mus musculus with 9 samples.

Results

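The 8 genes described here are Schwann cell and nerve genes measured in brown adipose tissue (BAT), chosen by name: Sox10, Mbp, Pmp22, Prx, S100b, Ngfr, Cdh19 and Th. The deposited tables listed 7 of the 8 among 16937 genes in all, and Th, the enzyme that starts noradrenaline synthesis, was listed in none of the 3 tables and was not analysed here. RNA came from BAT of 9 adult mice on the C57Bl/6J background, 3 in each of 3 groups. WT RT mice were wildtype and held at 23 °C, WT Cold mice were wildtype and spent 8 h at 4 °C, and GCN2 KO Cold mice were whole body Gcn2-/- and likewise spent 8 h at 4 °C. All were housed singly for 5 days of acclimation beforehand, all were killed at the same time of day, and there was no GCN2 KO group at 23 °C, so the effect of cold within the knockout and its difference from that in the wildtype could not be tested. GCN2, encoded by Eif2ak4, is a kinase that phosphorylates eIF2 when amino acids are scarce.

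BAT is densely innervated by sympathetic fibers whose noradrenaline drives thermogenesis through β-adrenergic receptors on the adipocytes. The fibers run with Schwann cells, glia of neural crest origin. Nonmyelinating Schwann cells ensheathe bundles of thin sympathetic and sensory axons, whereas myelinating Schwann cells wrap single larger axons in compact myelin built from proteins such as Pmp22 and Mbp. Nerve cell bodies lie outside the tissue, so that bulk BAT RNA holds mainly the messages of the glia and sheath cells and little of the neurons.

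Depth ran from 27058799 to 30768064 reads per library, counted on the genes of the tables. The letters A, B and C follow the order of the library codes inside each group and stand for no particular mouse. The library codes of WT RT begin with other letters than those of both cold groups. What the letters mark is not given in the sources used here, and it cannot be told apart from cold. Eif2ak4 was at 10.1, 11.5 and 12.7 size-adjusted CPM in WT RT, at 6.26, 8.22 and 8.46 in WT Cold, and at 12.7, 13.7 and 12.8 in GCN2 KO Cold. The targeted gene was thus not lower in the knockout, and since a count over the whole gene does not show which exons its reads cover, these are named below as the libraries labelled GCN2 KO Cold. Size-adjusted CPM, a depth-scaled count, are recovered reads scaled to a common depth and composition over all 9 libraries, and are used for levels. Groups were compared by limma on log2(normalized count + 1) in the table of each pair, and a gene passed the test at an adjusted p under 0.05 over all genes of that table. In bulk tissue, a change in the number of Schwann cells and a change in RNA per cell cannot be told apart.

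Pmp22 and S100b were the most abundant of the members and Sox10 and Ngfr the least. Per kilobase of exon, Pmp22, a tetraspan protein of compact myelin also made outside nerve, averaged 29.2, 44.8 and 46.1 size-adjusted CPM per kb in WT RT, WT Cold and GCN2 KO Cold. S100b, a calcium-binding protein of glia that brown adipocytes also make, averaged 22.3, 35.9 and 44.0, and Mbp, the basic protein of the myelin sheath, 4.91, 4.71 and 4.06. Cdh19, Prx, Sox10 and Ngfr followed, between 0.294 and 1.07 CPM per kb in every group mean. The order of the 7 means was the same in the 3 groups. The libraries of Pmp22 and S100b overlapped per kb in every group, whereas S100b stood above Mbp and Mbp above Cdh19 in all 9 libraries without overlap within a group. Among the 4 lowest genes, neighbors overlapped throughout in WT RT.

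Cold exposure in the wildtype went with higher Pmp22 and Prx. Of the 7 members, 2 passed the test in WT Cold against WT RT, both higher, which is 2 of 7 where 27.7% of all 16679 genes passed. The median log2 fold change of the members was 0.52, with 6 above 0, against 0.00294 over all genes. In 3 of the 7 (Pmp22, Prx and Cdh19) the libraries of both groups did not overlap, as in 45.5% of all genes. None of the members passed the study's fold threshold as well (an absolute log2 fold change over 1), which 8.14% of all genes did.

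**Figure D1:**
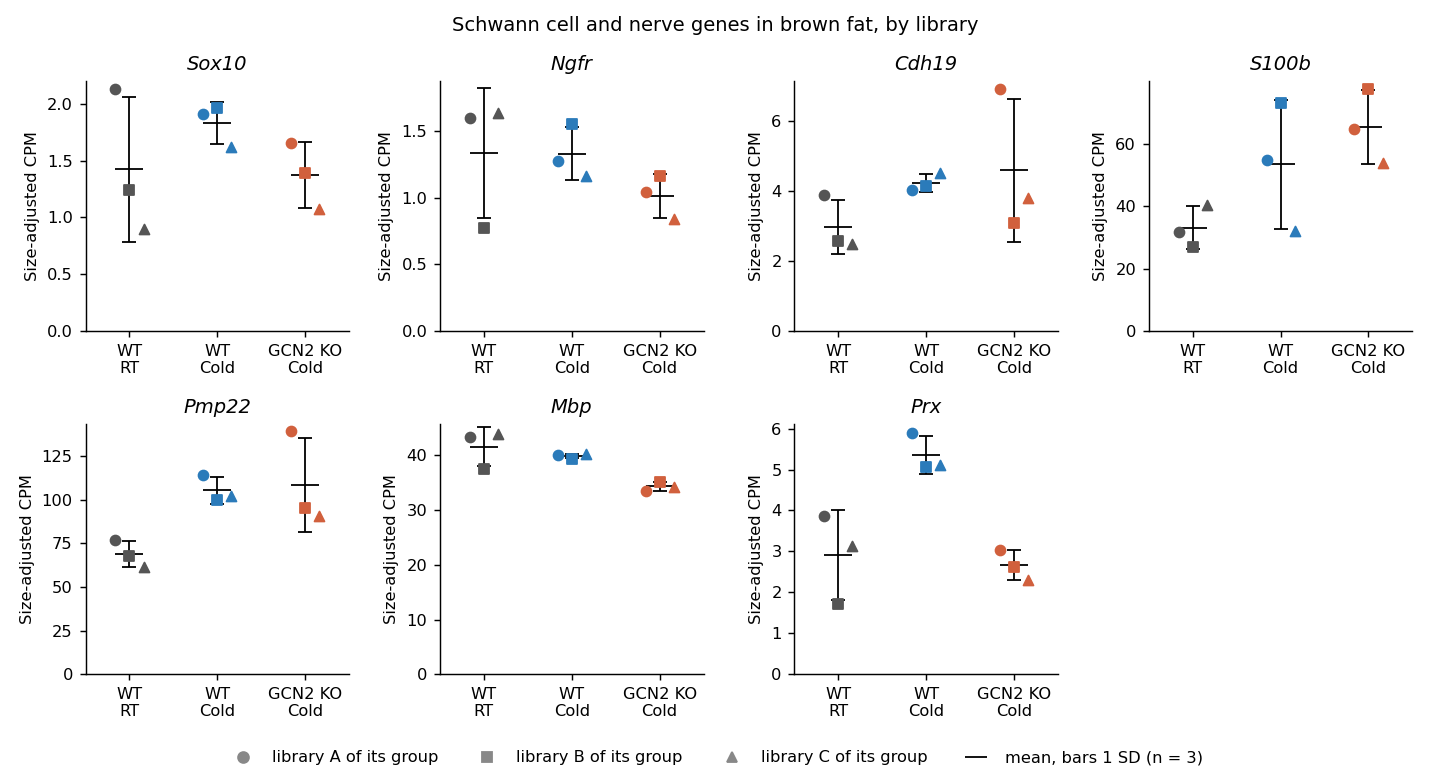
Size-adjusted CPM (linear axes from 0) of the 7 listed members in each of the 9 libraries. Symbols mark libraries A, B and C of a group, and horizontal lines with bars give the mean and 1 SD of 3 libraries. Pmp22 sits between 61.8 and 76.8 in WT RT and at 90.8 or more in both cold groups, and Prx is highest in the 3 WT Cold libraries.

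Pmp22 was at 76.8, 67.9 and 61.8 size-adjusted CPM in the WT RT libraries A, B and C, and at 114, 99.9 and 102 in those of WT Cold. Every WT Cold library lay above every WT RT library. The log2 fold change was 0.61 (SE 0.10, 95% interval 0.38 to 0.85, adjusted p = 0.00438, limma, n = 3 and 3), a 1.53-fold rise. This call held under each alternative fit and with any 1 library left out. Prx encodes periaxin, a scaffold of myelinating Schwann cells that links the sheath to its basal lamina. Its levels were 3.87, 1.72 and 3.14 CPM in WT RT and 5.90, 5.06 and 5.11 in WT Cold, with no overlap. The log2 fold change was 0.94 (SE 0.30, 95% interval 0.26 to 1.63, adjusted p = 0.0482, limma), with 58 to 129 reads per library in WT RT. The Prx call ended in edgeR (adjusted p = 0.0569), without the mean-variance trend (0.0792), and without any 1 of WT RT library B (0.0719) or C (0.0820) or WT Cold library A (0.132), B (0.108) or C (0.0547), while the log2 value stayed between 0.61 and 1.19.

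S100b split the WT Cold libraries. It was at 31.8, 26.9 and 40.5 CPM in WT RT and at 54.9, 73.0 and 32.0 in WT Cold, where library C lay within the WT RT range and its coefficient of variation was 38.5%. The log2 fold change of 0.63 (95% interval -0.03 to 1.29) missed the threshold in limma (adjusted p = 0.140) and passed it in DESeq2 (0.0354), and without WT Cold library C it was 0.95 (adjusted p = 0.00623, limma). S100b shares no exon bases with Dip2a, which overlaps it on the opposite strand and was at 29.7 to 49.4 CPM. Its log2 fold change was -0.33 (adjusted p = 0.101).

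Cdh19, a cadherin of the Schwann cell lineage, was at 3.87, 2.57 and 2.499 CPM in WT RT and at 4.02, 4.13 and 4.51 in WT Cold. The difference of 0.52 (95% interval 0.02 to 1.02, adjusted p = 0.109, limma) missed the threshold, and passed it only when WT RT library A was left out (log2 0.73, adjusted p = 0.0437). Sox10, the transcription factor that specifies and maintains Schwann cells, was at 2.13, 1.24 and 0.897 CPM in WT RT and at 1.91, 1.96 and 1.62 in WT Cold. WT RT library A exceeded all WT Cold libraries, and the log2 fold change of 0.44 had a 95% interval of -0.34 to 1.21 (adjusted p = 0.365, limma). Sox10 had 28 to 71 reads per library in these groups. Ngfr, the p75 neurotrophin receptor, which nonmyelinating and injured Schwann cells carry, was at 1.59, 0.769 and 1.63 CPM in WT RT and at 1.27, 1.55 and 1.16 in WT Cold, and its difference was 0.06 (95% interval -0.73 to 0.85). Mbp was at 43.3, 37.5 and 43.9 CPM in WT RT and at 40.0, 39.4 and 40.3 in WT Cold. With a log2 fold change of -0.06 (95% interval -0.26 to 0.14, adjusted p = 0.645, limma), it was the member with the narrowest interval in this comparison.

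In the cold, no member passed the test when WT Cold was set against the libraries labelled GCN2 KO Cold. The largest difference was in Prx. By limma 0 of 7 members passed, where 0.405% of all 16312 genes did (66 genes, 0.257% past the fold threshold as well). At an unadjusted p under 0.05 there were 2 members, Prx and Mbp, where 15.3% of all genes were. DESeq2 passed 1 (Prx), where it passed 3.22% of all genes, and edgeR passed 0, where it passed 0.270%. The median log2 fold change was -0.22, with 4 members below 0, against -0.00308 over all genes. Mbp, Prx and Ngfr were lower in the GCN2 KO Cold libraries without overlap, 3 of 7, where the groups did not overlap in 22.0% of all genes.

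Prx was at 3.04, 2.63 and 2.31 CPM in GCN2 KO Cold, below every WT Cold library and inside the range of WT RT. Its log2 fold change from WT Cold was -1.004 (SE 0.18, 95% interval -1.42 to -0.59, adjusted p = 0.0767, limma), and DESeq2 gave an adjusted p of 0.00358. Mbp was at 33.6, 35.2 and 34.3 CPM in GCN2 KO Cold, and differed from WT Cold by -0.22 (95% interval -0.39 to -0.04, adjusted p = 0.232, limma). The libraries of Mbp were close together in each cold group, with coefficients of variation of 1.08% (WT Cold) and 2.32% (GCN2 KO Cold). Ngfr was at 1.04, 1.16 and 0.838 CPM in GCN2 KO Cold. Its highest library there and its lowest in WT Cold were equal to 3 digits in CPM, and the difference of -0.38 (95% interval -0.99 to 0.24) did not pass.

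Sox10 was at 1.66, 1.39 and 1.08 CPM in GCN2 KO Cold, with a difference from WT Cold of -0.42 (95% interval -1.004 to 0.16, adjusted p = 0.485, limma). Pmp22 was at 139, 95.4 and 90.8 CPM and Cdh19 at 6.90, 3.08 and 3.79, and in both genes library A was far above the other two. Their differences from WT Cold were 0.02 (95% interval -0.36 to 0.40) for Pmp22 and 0.04 (95% interval -0.65 to 0.72) for Cdh19. S100b was at 64.7, 77.4 and 53.9 CPM, and its difference was 0.36 (95% interval -0.31 to 1.02, adjusted p = 0.609, limma).

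**Figure D2:**
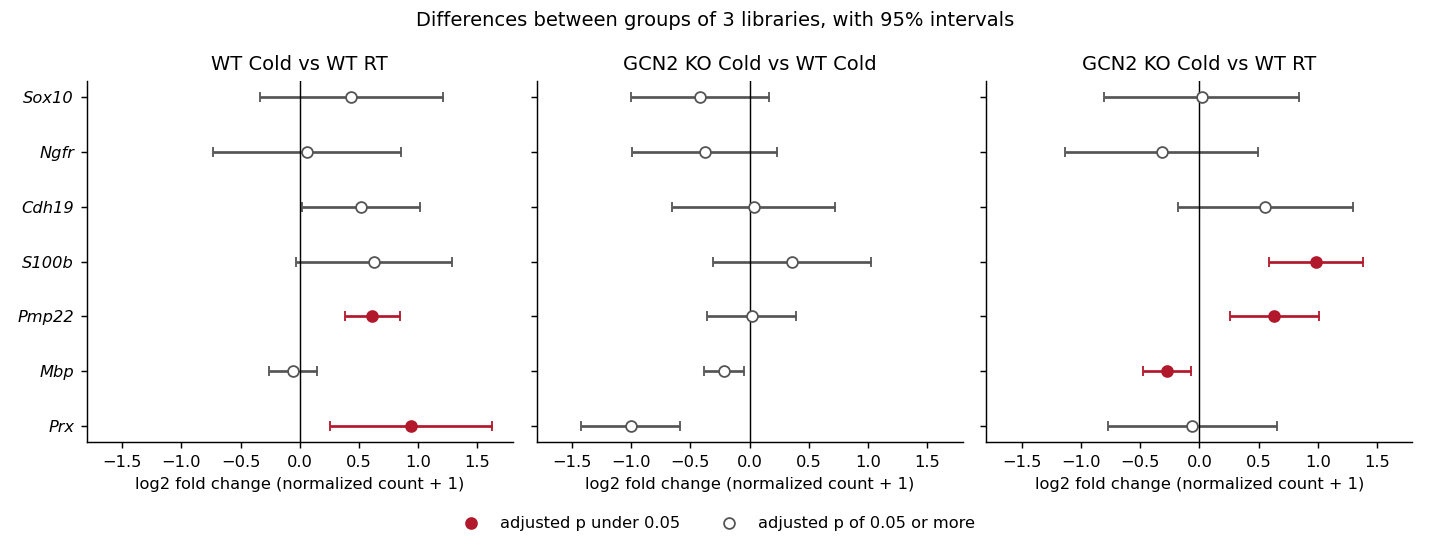
Log2 fold change of each member (horizontal axis, on log2(normalized count + 1)) in the 3 comparisons, first-named group minus second, with 95% intervals from limma (n = 3 and 3). Filled points passed an adjusted p of 0.05: Pmp22 and Prx in WT Cold against WT RT, none in GCN2 KO Cold against WT Cold, and S100b, Pmp22 and Mbp in GCN2 KO Cold against WT RT.

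Set against WT RT, the libraries labelled GCN2 KO Cold had higher S100b and Pmp22 and lower Mbp. This comparison shares its WT RT libraries with the first and its GCN2 KO Cold libraries with the second. The test was passed by 3 of 7 members, 2 higher and 1 lower, where 34.2% of all 16560 genes passed. No member passed the fold threshold as well, which 10.6% of all genes did. The groups did not overlap for these 3 members, as for 49.2% of all genes, and the median of the members was 0.02 against 0.00909 over all genes.

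S100b rose by a log2 fold change of 0.99 (SE 0.17, 95% interval 0.59 to 1.38, adjusted p = 0.00354, limma), a 1.98-fold difference in which all 3 GCN2 KO Cold libraries lay above the 3 of WT RT. Pmp22 rose by 0.63 (SE 0.16, 95% interval 0.26 to 1.01, adjusted p = 0.0184, limma). Its call ended without the trend (adjusted p = 0.0592), in the fit of all 3 groups on CPM (0.0645) and without WT RT library B (0.0533) or C (0.0651). Mbp fell by 0.27 on the log2 scale (SE 0.09, adjusted p = 0.0463, limma), a call that ended in DESeq2 (0.0536), without the trend (0.0962), without WT RT library A (0.136) or C (0.143) and without any 1 GCN2 KO Cold library (0.105 without A, 0.0793 without B, 0.0865 without C). For the other 4 the log2 fold changes were 0.02 for Sox10, -0.06 for Prx, -0.32 for Ngfr and 0.56 for Cdh19, with intervals that all included 0. The interval for Prx ran from -0.77 to 0.66.

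The 3 members that were higher in a cold group in any of these tests were S100b, Pmp22 and Prx, and the 250 bases before the RefSeq start of each (GRCm38.p6, coding strand) are shown so that their upstream sequence can be read beside these values. S100b is at chr10:76253586-76253835, Pmp22 at chr11:63128732-63128981 for the first of its 4 listed starts, and Prx at chr7:27499074-27499323, all on the plus strand. Capitals mark a match to a searched motif.
S100b: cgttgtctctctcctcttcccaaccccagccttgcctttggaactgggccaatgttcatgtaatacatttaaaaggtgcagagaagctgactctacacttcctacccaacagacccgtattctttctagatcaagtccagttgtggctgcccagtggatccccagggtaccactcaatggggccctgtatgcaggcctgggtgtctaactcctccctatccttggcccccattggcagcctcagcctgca
Pmp22: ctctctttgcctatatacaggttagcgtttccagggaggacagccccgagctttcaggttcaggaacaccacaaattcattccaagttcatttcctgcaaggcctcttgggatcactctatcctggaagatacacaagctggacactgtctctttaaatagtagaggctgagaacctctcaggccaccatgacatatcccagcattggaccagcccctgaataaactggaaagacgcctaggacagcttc
Prx: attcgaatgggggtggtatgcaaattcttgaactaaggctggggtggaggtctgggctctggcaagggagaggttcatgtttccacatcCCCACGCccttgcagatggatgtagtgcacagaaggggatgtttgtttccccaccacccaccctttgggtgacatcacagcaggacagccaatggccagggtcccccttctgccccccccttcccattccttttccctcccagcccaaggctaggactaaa
The motifs, sought on both strands, were ACAAAG and ACAATG (cores read by SOX factors), TGACG (the half-site of the cAMP response element) and GCGTGGG (part of the site of EGR factors), and none overlaps another. They occur in 16.5%, 10.7%, 17.8% and 4.30% of the 32851 windows of this length in the table. The 1 match was GCGTGGG, on the minus strand of the Prx window, starting 161 bases before the start, and the windows of S100b and of the 4 Pmp22 starts held none. A match describes these letters and is no evidence of binding. The windows of Sox10, Cdh19 and Mbp were not in the table.

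Other Schwann cell genes were taken from a list, of which 27 are reported here and 24 were listed in at least 1 table. In WT Cold against WT RT, 3 of these 23 passed, 1 higher and 2 lower, where 27.7% of all genes passed, with a median log2 fold change of 0.28. The rise was in Mal (1.13, adjusted p = 0.00627, limma), a proteolipid of myelin and of epithelial membranes, from 2.43 to 3.27 CPM in WT RT to 5.18 to 7.50 in WT Cold. The falls were in Cnp (-0.62, adjusted p = 0.00835), an enzyme of noncompact myelin found in many tissues, and Scn7a (-0.40, adjusted p = 0.0312), a sodium channel of nonmyelinating Schwann cells. The Scn7a call ended in 5 of 14 alternatives, without the trend (adjusted p = 0.0637), without any 1 WT RT library (0.102 without A, 0.0617 without B, 0.0590 without C) and without WT Cold library B (0.0918). Both were also lower in GCN2 KO Cold than in WT RT, Cnp by -1.02 (adjusted p = 0.00106) and Scn7a by -0.78 (adjusted p = 0.00233). These were the 2 of 22 reported genes that passed there, where 34.2% of all genes passed, with a median of -0.06.

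Between the cold groups, 0 of the 21 reported genes of this list with a value passed in limma (0.405% of all genes), with 6 at an unadjusted p under 0.05 (15.3% of all genes), 2 past the threshold in DESeq2 (3.22% of all genes) and 0 in edgeR (0.270%). Their median was -0.29, and the groups did not overlap in 7 of the 21 (6 lower, 1 higher), where they did not in 22.0% of all genes. Mal was at 4.43, 2.44 and 2.59 CPM in GCN2 KO Cold, below every WT Cold library, with a difference of -0.997 (95% interval -1.63 to -0.37, adjusted p = 0.168, limma).

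The defining Schwann cell genes Erbb3 and Egr2 did not pass in any comparison in limma. Erbb3, the neuregulin receptor of Schwann cells, ranged from 8.27 to 17.2 CPM over all 9 libraries, with a difference between the cold groups of 0.12 (95% interval -0.30 to 0.55). Egr2, which switches on the myelin genes, ranged from 0.424 to 1.31 CPM, and its difference there was -0.65 (95% interval -1.53 to 0.24). Against WT RT, Egr2 was lower in GCN2 KO Cold without overlap, by -0.85 (95% interval -1.64 to -0.07, adjusted p = 0.0888, limma), and it passed there in the fit of all 3 groups on CPM (-0.49, adjusted p = 0.0291).

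**Figure D3:**
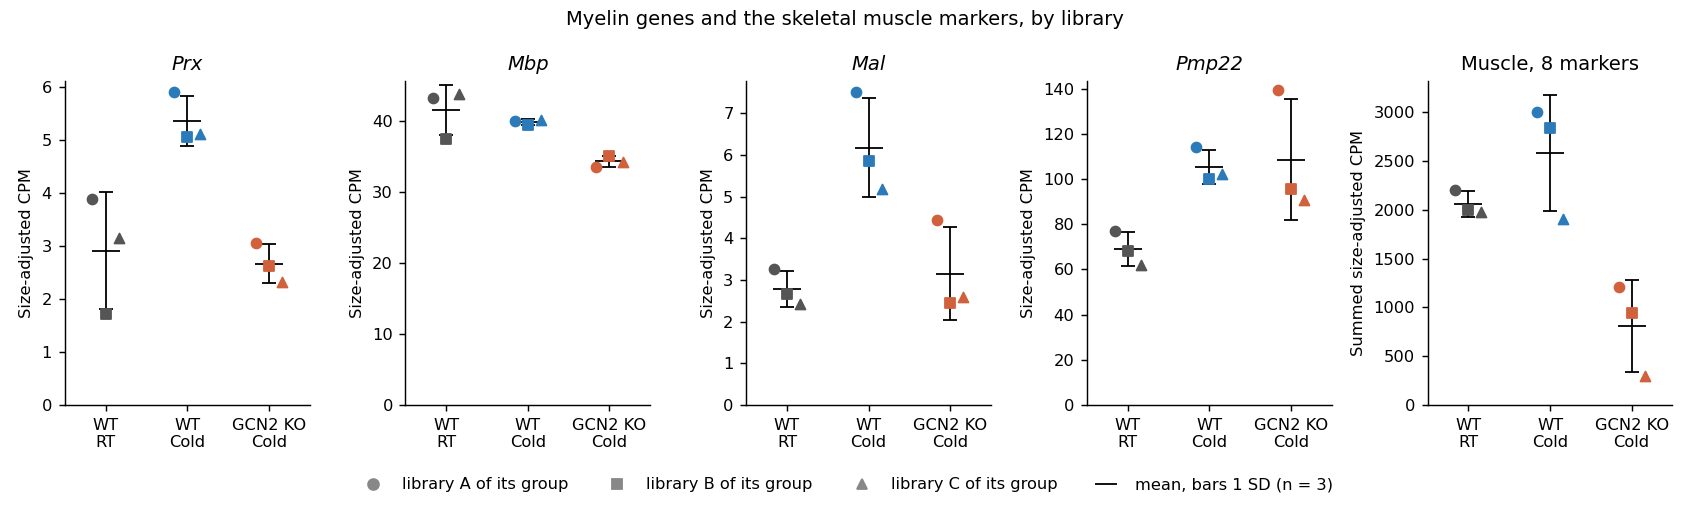
Size-adjusted CPM of the myelin genes Prx, Mbp, Mal and Pmp22 and the summed CPM of 8 skeletal muscle markers in each library (linear axes from 0), with the mean and 1 SD of 3 libraries. Prx, Mbp, Mal and the muscle sum are lower in every GCN2 KO Cold library than in every WT Cold library, and Pmp22 overlaps between these groups.

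Markers of other tissue moved between the same groups. The summed level of 8 skeletal muscle markers, a tissue whose motor nerves are myelinated, was 1973 to 2207 CPM in WT RT, 1905 to 3004 in WT Cold and 292 to 1206 in GCN2 KO Cold. All 8 were listed and none was at 0. All 8 were lower in GCN2 KO Cold than in WT Cold, by a median log2 fold change of -1.96, though 0 of 8 passed in limma (0.405% of all genes), with 8 of 8 at an unadjusted p under 0.05 (15.3% of all genes), 2 past the threshold in DESeq2 (3.22%) and 0 in edgeR (0.270%). Against WT RT 6 of the 8 fell in GCN2 KO Cold, where 34.2% of all genes passed, and 2 of the 8 rose in WT Cold, where 27.7% did. The muscle sum was 2207, 1993 and 1973 CPM in WT RT libraries A, B and C, 3004, 2838 and 1905 in those of WT Cold, and 1206, 938 and 292 in those of GCN2 KO Cold. Mal had this order of libraries in WT RT (3.27, 2.66 and 2.43 CPM) and in WT Cold (7.50, 5.85 and 5.18) and not in GCN2 KO Cold (4.43, 2.44 and 2.59). Prx had it in GCN2 KO Cold and in neither wildtype group, and Mbp in none of the 3. The part of muscle in the differences of Prx, Mbp and Mal was not tested.

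Markers of fibroblasts and macrophages, cells that nerve sheaths also hold, summed to less in every cold library than in every WT RT library. Of the 6 fibroblast markers 4 fell in each cold group against WT RT, and of the 6 macrophage markers 3 fell in WT Cold, against 5 of 6 in the GCN2 KO Cold libraries, where 27.7% and 34.2% of all genes passed in these comparisons. The 6 fibroblast markers summed to 984 to 1131 CPM in WT RT, 794 to 879 in WT Cold and 569 to 733 in GCN2 KO Cold. Between the cold groups all 6 were below 0, 5 of them without overlap (22.0% of all genes), and 0 passed in limma (0.405%), with 5 at an unadjusted p under 0.05 (15.3% of all genes), 1 past the threshold in DESeq2 (3.22%) and 0 in edgeR (0.270%). The 6 macrophage markers summed to 176 to 233, 92.0 to 162 and 73.7 to 104 CPM in the same order of groups. All 6 were below 0 between the cold groups, and 0 passed in limma, DESeq2 and edgeR. At an unadjusted p under 0.05 there were 2 of the 6, where 15.3% of all genes were. All markers of both lists were listed, and their part in the differences of the nerve genes was not tested.

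The summed 6 smooth muscle and pericyte markers ran from 548 to 989 CPM in WT RT, 765 to 1088 in WT Cold and 773 to 1341 in GCN2 KO Cold, with 0 of the 6 past the threshold in limma, DESeq2 or edgeR in any comparison, where 27.7%, 0.405% and 34.2% of all genes passed in limma in WT Cold against WT RT, between the cold groups and in GCN2 KO Cold against WT RT. At an unadjusted p under 0.05 there was 1 of the 6, between the cold groups. Library A was the highest of WT RT and of GCN2 KO Cold in this sum, as it was for Cdh19, Sox10, Pmp22 and Prx. The part of this in the spread of these members was not tested.

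The 8 brown adipocyte markers were all listed, and summed to 17659 to 20066 CPM in WT RT, 24667 to 25981 in WT Cold and 30556 to 31528 in GCN2 KO Cold, with no overlap between any pair of groups. In WT Cold against WT RT 3 of the 8 rose and 2 fell, where 27.7% of all genes passed, and in GCN2 KO Cold against WT RT 5 rose and 1 fell, where 34.2% did. Of the 8, 0 passed between the cold groups in limma (0.405% of all genes), with 5 at an unadjusted p under 0.05 (15.3%), 3 past the threshold in DESeq2 (3.22%) and 0 in edgeR (0.270%). S100b, which brown adipocytes also make, Pmp22 and Cdh19 had their group means in the same order as this sum, and the other 4 members did not. The 6 endothelial markers, all listed, summed to 491 to 580 CPM in WT RT, 625 to 730 in WT Cold and 531 to 652 in GCN2 KO Cold. WT Cold lay above WT RT in this sum without overlap, as it did for Pmp22, Prx and Cdh19. There 2 of the 6 markers rose, where 27.7% of all genes passed. In GCN2 KO Cold against WT RT, where Pmp22 was also higher, the endothelial sums overlapped, and 1 of the 6 markers rose and 2 fell, where 34.2% of all genes passed. Of the 6, 0 passed between the cold groups in limma, DESeq2 and edgeR, with 1 at an unadjusted p under 0.05. The part of brown adipocytes in the differences of S100b, Pmp22 and Cdh19 was not tested, nor that of endothelium in those of Pmp22, Prx and Cdh19.

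Sympathetic and axonal genes outside the members were low, summing to 39.0 to 75.8 CPM for the 24 with a value in every library. Of 27 reported here, 25 were listed, and Npy and Nefh were not. In WT Cold against WT RT 2 of 25 passed, both higher, where 27.7% of all genes passed, and the median was 0.52. Calca, the precursor of the sensory peptide CGRP, was at 0.118 to 0.256 CPM in WT RT and 0.570 to 1.62 in WT Cold (log2 2.25, adjusted p = 0.0155, limma), from 4, 4 and 8 reads in the WT RT libraries. The Calca call ended without WT RT library A (adjusted p = 0.0507) or B (0.0524). Uchl1, a neuronal ubiquitin hydrolase, rose by 0.57 (adjusted p = 0.0494), a call that ended in 10 of 14 alternatives. Between the cold groups 0 of 23 passed in limma, DESeq2 and edgeR, where 0.405%, 3.22% and 0.270% of all genes did, with 2 at an unadjusted p under 0.05 (15.3% of all genes). In GCN2 KO Cold against WT RT, 1 of 23 passed, where 34.2% of all genes did, with a median of 0.50. It was Slc18a2, the vesicular monoamine transporter (0.94, adjusted p = 0.0336, limma), a call that ended in 5 of 14 alternatives, without any 1 WT RT library (adjusted p = 0.0657 without A, 0.0930 without B, 0.0827 without C) and without GCN2 KO Cold library A (0.0890) or C (0.107).

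The noradrenergic defining genes did not pass in limma in any comparison in which they were listed. Dbh, which makes noradrenaline from dopamine, was listed only in WT Cold against WT RT, at 0.207 to 0.480 CPM in WT RT and 0.318 to 0.413 in WT Cold. Slc6a2, the noradrenaline transporter, ranged from 0.0353 to 1.27 CPM in WT Cold alone, and its interval between the cold groups ran from -2.90 to 2.60. Ddc, the aromatic amino acid decarboxylase, was at 2.27 to 3.46 CPM in WT RT, 3.38 to 5.68 in WT Cold and 2.89 to 6.13 in GCN2 KO Cold, and its log2 fold change with cold in the wildtype was 0.74 (adjusted p = 0.0717, limma). Ddc passed there in DESeq2 (0.76, adjusted p = 0.0356) and without WT Cold library A (0.99, adjusted p = 0.0300), and in GCN2 KO Cold against WT RT, where it was 0.72 (adjusted p = 0.113), without GCN2 KO Cold library B (1.06, adjusted p = 0.0145).

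**Figure D4:**
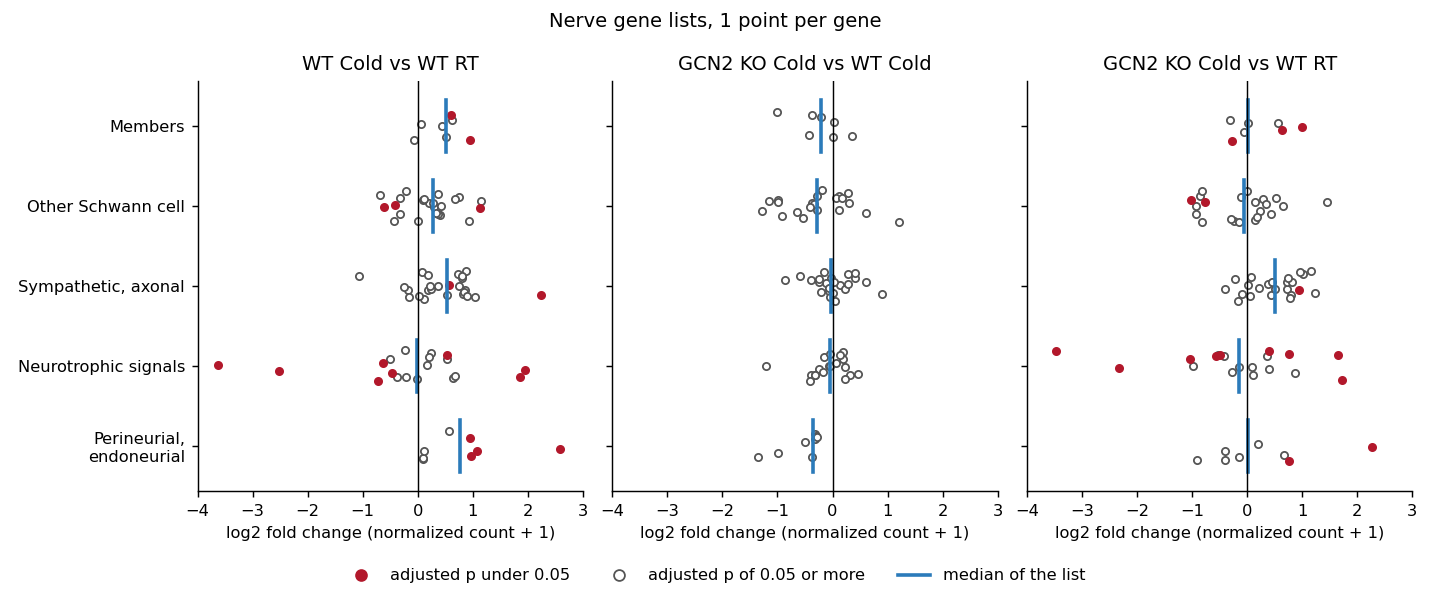
Log2 fold change (horizontal axis, on log2(normalized count + 1)) of each listed gene of the members and of 4 other nerve lists in the 3 comparisons, with vertical position within a row spread at random. Filled points passed an adjusted p of 0.05, and bars are list medians, 0.52 for the members in WT Cold against WT RT and -0.22 in GCN2 KO Cold against WT Cold.

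Neurotrophic and nerve-signal genes included the largest fall of any nerve list, in Sorcs2. The largest rise of any nerve list was outside them, in Cldn1 (2.59 in WT Cold against WT RT). Of 21 reported here, 19 were listed. With cold in the wildtype 3 rose and 5 fell, 8 of 19 where 27.7% of all genes passed. The rises were in Cntfr (1.96, adjusted p = 9.9e-05), the receptor subunit for ciliary neurotrophic factor, Gfra1 (1.86, adjusted p = 1.4e-04), the GDNF co-receptor, and Clstn3 (0.52, adjusted p = 0.00429), a calsyntenin gene that also encodes an adipocyte form, which gene counts do not separate. The steepest falls were in Sorcs2 (-3.62, adjusted p = 1.3e-04), a sorting receptor that binds proneurotrophins, from 43.7 to 56.6 CPM in WT RT to 2.82 to 5.61 in WT Cold, in Ntrk3 (-2.52, adjusted p = 3.5e-05), the receptor for neurotrophin-3, and in Sema3c (-0.72, adjusted p = 0.00517), a secreted axon guidance cue. In GCN2 KO Cold against WT RT 4 rose and 5 fell, 9 of 19 where 34.2% of all genes passed, with Cntfr at 1.64, Gfra1 at 1.72, Clstn3 at 0.76, Sorcs2 at -3.48, Ntrk3 at -2.32 and Sema3c at -1.04. Between the cold groups 0 of 19 passed in limma, DESeq2 and edgeR, where 0.405%, 3.22% and 0.270% of all genes did. At an unadjusted p under 0.05 there were 3, where 15.3% of all genes were. In WT RT Ntrk3 averaged 85.6, Sorcs2 49.8, Cntfr 18.5 and Gfra1 11.9 CPM, against 1.42 for Sox10 and 68.8 for Pmp22. Which cells of the tissue made these messages was not tested.

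Perineurial and endoneurial genes, of the sheath and the connective tissue of nerve, were listed for 8 of 10. In WT Cold against WT RT 4 of 8 rose and none fell, where 27.7% of all genes passed, with a median of 0.76. Cldn1, a tight junction protein of perineurium and of epithelia, rose by 2.59 (adjusted p = 6.3e-04, limma) from 4.08 to 6.51 CPM in WT RT to 21.8 to 38.7 in WT Cold. Slc2a1, the glucose transporter of perineurium and of many other cells, rose by 1.07 (adjusted p = 9.9e-04), and Sox9, a transcription factor of endoneurial and many other cells, by 0.97 (adjusted p = 0.0380). The Sox9 call ended without the trend (0.0727), in the fit of all 3 groups on CPM (0.0557) and without WT Cold library A (0.0790) or B (0.119). In GCN2 KO Cold against WT RT 2 of 8 passed, where 34.2% of all genes did, Cldn1 at 2.27 and Slc2a1 at 0.76. Between the cold groups all 8 were below 0 with a median of -0.35, and 0 passed in limma (0.405% of all genes), with 2 at an unadjusted p under 0.05 (15.3%), 1 past the threshold in DESeq2 (3.22%) and 0 in edgeR (0.270%).

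The genes most like each member over the 9 libraries, by Pearson's r of log2(CPM + 1) among 14046 genes with a mean of at least 1 CPM, are given as a description, since libraries of a group share their treatment and their composition. For Prx they were Fiz1 (0.96), Hspa2 (0.95) and Ablim3 (0.95). Those of Sox10 were Fhod3 (0.94), Ccdc39 (0.93) and Kcnma1 (0.92), and those of Cdh19 were Gmeb2 (0.92), Rn7sk (0.89) and Tac1 (0.88). For Pmp22 they were Gprc5a (0.96), Metap1 (0.94) and Rn7sk (0.94), and for S100b Ankrd13c (0.96), Gpr4 (0.94) and Sgcd (0.94). For Mbp they were Prkg1, March8 and Tsc1 (each 0.98), and for Ngfr Inppl1 (0.92), Rnf14 (0.91) and Farp2 (0.91).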

How the data were processed

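BAT RNA of 9 mice was sequenced from oligo(dT)-selected libraries made with a kit that does not mark strand, so reads of overlapping genes cannot be told apart. Prx shares 300 exon bases with the antisense gene Gm15541. Groups held both sexes, which the labels do not give per mouse, and nothing ties a column to a mouse. The title of 1 GCN2 KO Cold sample also reads WT, whereas its genotype label reads GCN2 KO, and it was kept in that group. The submitters' processing notes name Trimmomatic 0.36, STAR 2.5.2b, featureCounts in Subread 1.5.2, DESeq2 and GRCm39. In each of 3 tables, 1 per pair of groups, the authors deposited a normalized count (a signal: reads divided by a size factor per library and table), together with their own log2 fold changes and p-values, which were not used. Whole reads were recovered for 100% of values (within 0.01 reads), and the least covered gene had 61 reads over 6 libraries. No column belonged to another sample (0 of them).

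Main test: limma 3.58.1 (R 4.3.3) with a mean-variance trend on log2(normalized count + 1), 3 against 3, with Benjamini-Hochberg adjustment over all genes of a table. This scale understates the change of low genes. Its p-values set a group difference against the spread between these libraries, with the variance of each gene drawn toward the trend over all genes. DESeq2 1.42.0, which the study used, and edgeR 4.0.16 (quasi-likelihood) on the recovered reads were alternatives, as were other pseudocounts (0.5 and 5), a mean of at least 50, TMM scaling, no trend, 1 fit of all groups on CPM, and each library left out. Levels over 9 libraries are recovered reads divided by median-of-ratios size factors. Exon lengths are from GENCODE M21 (GRCm38), and upstream sequence is from RefSeq (GRCm38.p6), where 5 of the 8 genes had an entry.

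The members and lists were chosen with earlier results of these data known. Named genes are the members, defining genes of the lists (Erbb3, Egr2, Dbh, Ddc, Slc6a2 and Npy), and up to 3 genes per direction, comparison and nerve list past the threshold with the largest change. Some genes of the nerve lists are not reported here. They were left out by name and not for their values, whether or not they passed a test, and the counts, medians and sums are those of the other genes. For markers of other cells the counts and sums are given in place of single genes. Of 6 lymphocyte markers, 5 had a value in every library and summed to 6.79 to 8.52 CPM in WT RT, 5.16 to 7.14 in WT Cold and 6.98 to 8.60 in GCN2 KO Cold. None passed in limma, and 1 passed in DESeq2 and in edgeR, in WT Cold against WT RT, with 1 at an unadjusted p under 0.05 in each comparison.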

Additional observations from a re-analysis of the deposited data

How the results depend on the processing

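Of the members past an adjusted p of 0.05, the count of 2 in WT Cold against WT RT was 0 with the fold threshold added, 1 without the trend, 1 in edgeR and 3 in DESeq2, and ran from 1 to 3 with 1 library left out. Without WT Cold library C it was 2, with S100b in place of Prx. Over all 16679 genes 4624 passed, against 1357 with the fold threshold added, 3521 without the trend, 4609 in edgeR and 4928 in DESeq2. With 1 library left out 2907 to 5679 of them did. The count of 0 in GCN2 KO Cold against WT Cold was 1 in DESeq2, where 3.22% of all genes passed, and stayed 0 with any library left out. The count of 3 in GCN2 KO Cold against WT RT was 0 with the fold threshold added, 1 without the trend, 2 in DESeq2 and 3 in edgeR, and ran from 1 to 2 with 1 library left out. There 5657 of all 16560 genes passed, against 1754 with the fold threshold added, 4779 without the trend, 5700 in DESeq2 and 5671 in edgeR. With 1 library left out 4220 to 5261 of them did. Where the construction of the alternative does not show it (fewer samples, an added threshold), the cause was not tested.

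Values that changed sign (23 for members, 17 for other named genes) were past the threshold neither before nor after. In WT Cold against WT RT, Ngfr was -0.0056 in DESeq2, -0.0086 in edgeR and -0.029 in the fit of all groups on CPM, and -0.29 to 0.24 with 1 library left out. There Egr2 ran from -0.41 to 0.038 and Slc6a2 from -0.75 to 1.39 with 1 library left out. In GCN2 KO Cold against WT Cold, Ddc was 0.011 in DESeq2 and 0.015 in edgeR, and the fit on CPM gave -0.10 for Pmp22 and -0.053 for Cdh19. With 1 library left out, Pmp22 ran from -0.18 to 0.13, Cdh19 from -0.30 to 0.28, Erbb3 from -0.0054 to 0.32, Ddc from -0.27 to 0.32 and Slc6a2 from -1.32 to 0.78. In GCN2 KO Cold against WT RT, Sox10 was -0.0062 with TMM scaling, -0.054 in DESeq2, -0.078 in edgeR and -0.12 on CPM, and with 1 library left out it ran from -0.26 to 0.35, Prx from -0.40 to 0.19 and Slc6a2 from -0.87 to 0.59.

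Of the values recomputed, 243 for members and 475 for other named genes kept their direction and their side of the threshold, 18 and 26 lost the threshold, and 4 and 4 gained it. In the fit on plain CPM the median of all genes was -0.06, -0.10 and -0.15 on the log2 scale in the 3 comparisons, against 0.00294, -0.00308 and 0.00909, a move of -0.06, -0.09 and -0.15. It split the calls into 1661 higher and 3034 lower, 52 and 376, and 1471 and 4774, against 2268 and 2356, 29 and 37, and 2713 and 2944. Between the cold groups, 66 genes passed in limma, 526 in DESeq2, 44 in edgeR and 6 without the trend, and with 1 library left out 3 (without WT Cold library B) to 24 (without WT Cold library C). Sox10 and Ngfr, with 21 to 71 reads per library, were left out by the filter at a mean of 50 in all 3 comparisons, and depth limits the precision of their values and of those of the noradrenergic genes. No paired analysis was possible because the columns carry library codes and no replicate numbers.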
